A study of Mus musculus with 48 samples.

Results

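The effect of removing the clock gene Bmal1 from the intestinal epithelium was described at a single circadian time, CT1, in colon tissue of 8 male mice, out of 48 mice that the study sequenced at 6 circadian times. The groups were taken from the labels: 4 mice of genotype Bmal1iec-/- (SV384, SV385, SV479 and SV480) and 4 of genotype Bmal1fl/fl (SV454, SV455, SV468 and SV469), all killed at CT1 at an age of 18 to 20 weeks, during their second day in constant darkness. Both genotypes carried the floxed Bmal1 alleles on a C57BL/6J background. The mice called Bmal1IEC-/- below also carried 1 Villin-Cre allele, which deletes the floxed gene in the epithelium of the gut, while their littermates, called control below, carried none. Cells outside the epithelium therefore kept Bmal1 in both groups, and the sequenced tissue held such cells. All 55401 listed genes were considered, of which 14618 had enough reads to be tested.

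In mammalian cells BMAL1 pairs with CLOCK or NPAS2 and switches on genes with an E-box in their promoter, among them the Per and Cry genes, whose proteins then block the pair. A second loop runs through REV-ERB proteins, encoded by Nr1d1 and Nr1d2, which repress genes with a ROR element, and through the ROR proteins, which activate them. A further group of factors, DBP, TEF, HLF and their opponent NFIL3, acts on D-box elements and passes the rhythm on to metabolism. In the gut this machinery sets daily rhythms of digestion, transport, barrier and immune genes.

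Before the genotypes were compared, the libraries were checked, and 2 of the 4 Bmal1IEC-/- mice stood apart. Totals at CT1 were alike, from 3227695 to 4027575 counts per mouse. In SV384 and SV385, however, long non-coding RNA held 0.581% and 0.515% of all counts, below the range of 0.852% to 1.25% in the other 46 mice of the series, and Malat1 and Neat1, which stay in the nucleus, were also below the range of the others. Summed over 41 tested genes of splicing and nuclear speckles, these 2 mice had 7170 and 7030 CPM (read counts scaled to a common library size, normalized for composition), against 12500 and 12600 in SV479 and SV480 and 11700 to 12600 in controls. Ribosomal proteins and the respiratory chain ran the other way. The 2 mice also differed from each other, since smooth muscle genes summed to 7190 CPM in SV384 and 2200 in SV385, while fibroblast genes summed to 3870 and 1100. Between mice of a group, counts varied by more than counting error, with a chi-square per gene of 2.22 to 4.54 among controls, 1.96 between SV479 and SV480 and 7.88 to 15.1 wherever the pair was involved. Hence each result is given with all 4 Bmal1IEC-/- mice (fit over 48 mice) and again without this pair (fit over 46 mice, 2 Bmal1IEC-/- against 4 control mice at CT1). The pair was singled out on these values, so its own difference from the other mice was not tested.

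**Figure D1:**
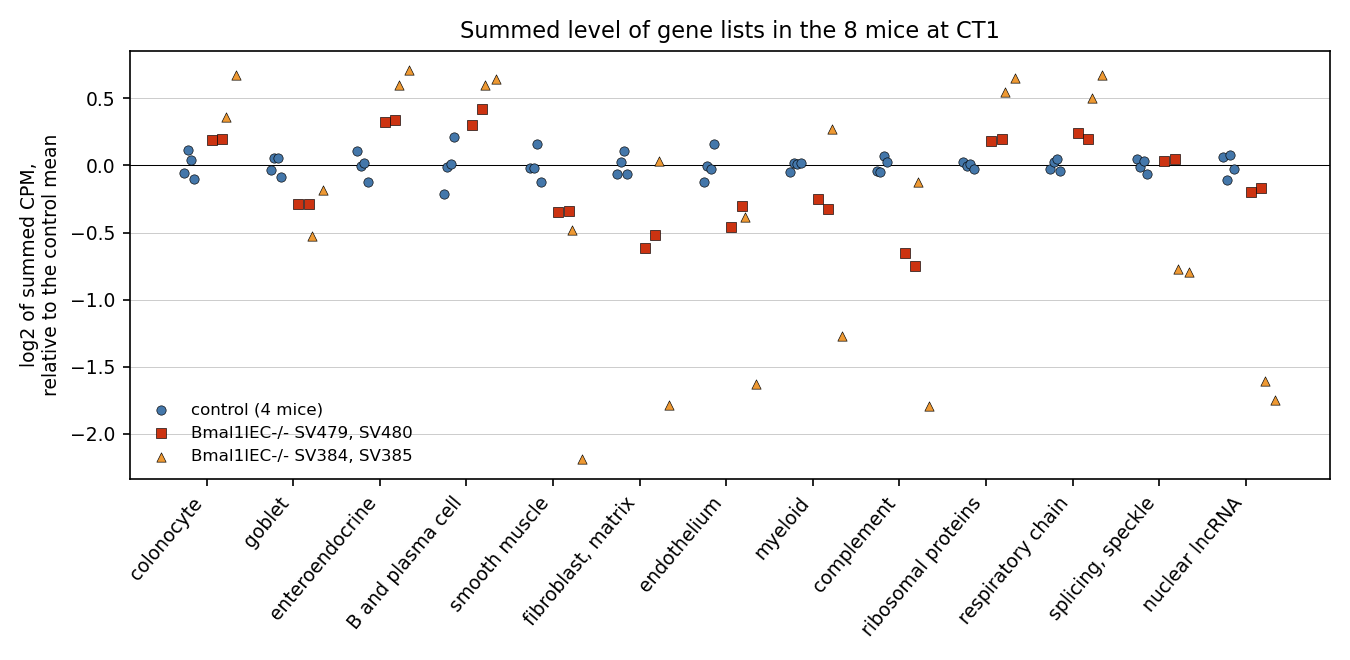
Summed normalized CPM of 13 gene lists in each of the 8 mice at CT1, as log2 relative to the mean of the 4 control mice (blue circles). Red squares are Bmal1IEC-/- mice SV479 and SV480, and orange triangles are SV384 (left) and SV385 (right). Splicing and nuclear lncRNA lists are low in both orange mice, stromal lists (smooth muscle, fibroblast, endothelium) are lowest in SV385, and SV479 and SV480 lie outside the control mice for most lists.

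With all 4 Bmal1IEC-/- mice, 654 genes were higher (4.47% of those tested) and 1020 lower (6.98%) than in controls, counting a gene as called at an adjusted p under 0.05 (edgeR) and a fold change over 1.5. Without SV384 and SV385, 59 genes were called higher (0.391% of 15073) and 70 lower (0.464%). Both fits called 55 genes higher (0.376%) and 58 lower (0.397%). These 113 genes were 93.2% and 82.9% of the higher and lower calls made without the pair, but 8.41% and 5.69% of those made with it. Of the genes called with 4 mice, 648 of 654 and 1017 of 1020 had the same direction without the pair. Both fits share the controls, SV479 and SV480, so a shared direction follows in large part from the design and is not a replication. The median log2 fold change shrank from 0.75 to 0.46 for the higher genes and from -0.85 to -0.59 for the lower ones. Leaving out SV385 alone left 267 higher and 306 lower calls, leaving out SV384 alone left 561 and 832, and leaving out SV479 brought the higher calls to 988. Of the genes named below, 15 (5 higher, 10 lower) kept an adjusted p under 0.05 and their direction under each of up to 17 alternatives to the fit with all mice, which do not include leaving out further mice once the pair is removed. These were Per2, Cry1, Ggh, Cldn8 and Nags, which were higher, and Nr1d1, Nr1d2, Sis, Ces1d, Cyp4b1, Lpin1, Thbs4, Ebf1, Slc22a4 and the non-coding Gm1965 (not tested among protein-coding genes alone), which were lower. All but Slc22a4 were among the genes chosen for holding without the pair, so that alternative was passed by choice. The count is therefore not a share of all genes tested.

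**Figure D2:**
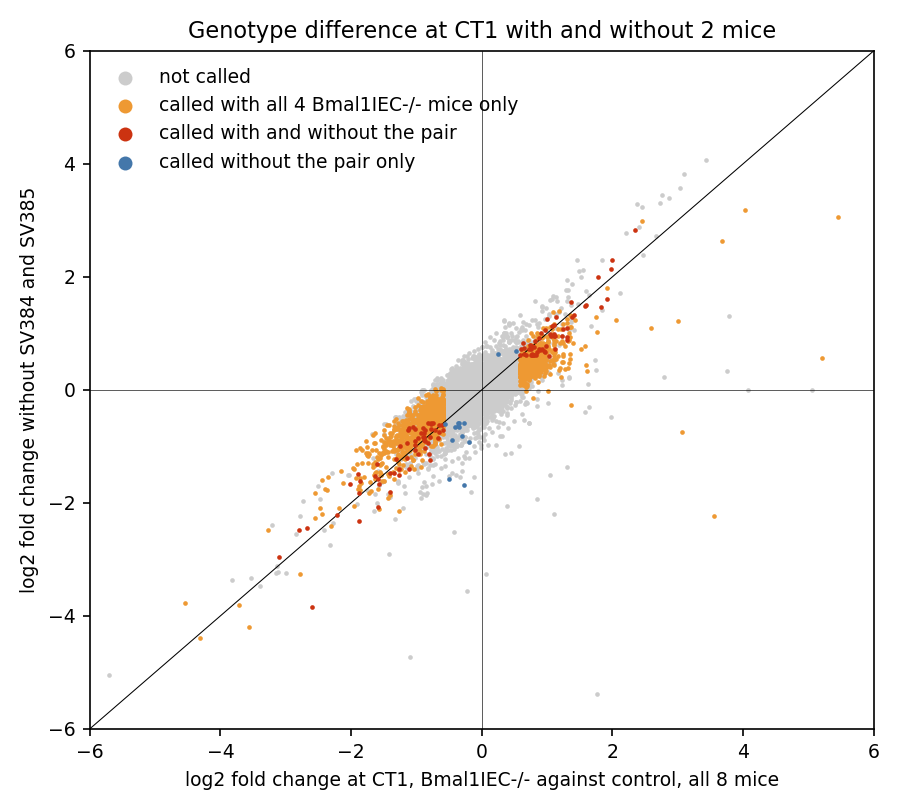
Log2 fold change at CT1, Bmal1IEC-/- against control, of each of 14618 genes with all 8 mice (x axis) and without SV384 and SV385 (y axis), with the line of equality. Red points were called in both fits, orange points with all 4 Bmal1IEC-/- mice alone and blue points without the pair alone, and 2 genes lie outside the axes. Most orange points lie closer to 0 on the y axis than on the x axis.

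The deleted gene, listed as Arntl (ENSMUSG00000055116.8, chromosome 7, 113207465 to 113314126, GRCm38), was at 64.2, 67.2, 74.0 and 64.7 CPM in the controls SV454, SV455, SV468 and SV469. In the Bmal1IEC-/- mice SV384, SV385, SV479 and SV480 it was at 27.8, 25.3, 44.7 and 47.2 CPM, an order of mice that is kept for all values below. All 4 Bmal1IEC-/- mice lay below all controls, and the pair lay below SV479 and SV480. The log2 fold change was -0.89 ± 0.17 (SE, adjusted p = 2.89e-04) with all mice and -0.56 ± 0.18 without the pair (adjusted p = 0.0966), so that Arntl was not called there. The value counts reads of all exons, in cells with and without Cre, and these parts cannot be told apart. In bulk tissue, too, fewer cells of a type and less RNA per cell cannot be told apart, here and in the results that follow.

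Of 21 clock genes, 20 were tested at CT1. With all mice 6 of them were higher and 3 lower, and in both fits 4 were higher (Per2, Cry1, Cry2 and Tef) and 2 lower (Nr1d1 and Nr1d2). Over all genes tested, 4.47% were called higher and 6.98% lower with all mice, and 0.376% and 0.397% in both fits. Across the same genes, the 4 Bmal1IEC-/- mice lay above all controls for 10.9% of genes and below them for 8.5%. Among the 21 clock genes this was the case for 6 and 5.

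Among the partners and activators, Npas2, the substitute for CLOCK, was at 55.6 to 57.9 CPM in controls and 60.1 to 72.4 in Bmal1IEC-/- mice, without overlap, but its log2 fold change of 0.23 ± 0.14 did not pass the test (adjusted p = 0.225). Clock itself overlapped between the groups (0.23 ± 0.17, adjusted p = 0.337). Rora was lower in all 4 Bmal1IEC-/- mice, yet at 4.51 CPM in SV385 against 15.9 to 18.7 CPM in the other 3, and its difference of -0.58 ± 0.19 was below the fold threshold and not past the test without the pair (adjusted p = 0.454). Rorb was at or below 1.07 CPM throughout and was not tested.

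The repressors split into a group that was higher and a group that was lower. Per2 (chromosome 1, 91415982 to 91459324) was at 10.7, 12.5, 6.14 and 10.8 CPM in controls and at 32.4, 28.9, 49.4 and 49.6 CPM in Bmal1IEC-/- mice. It rose by 2.0 ± 0.25 on the log2 scale (adjusted p = 5.72e-07), and by 2.29 ± 0.27 without the pair. Cry1 (chromosome 10, 85131700 to 85185064) was at 30.0, 28.2, 30.4 and 29.1 CPM in controls and at 72.8, 112, 82.3 and 84.3 CPM in Bmal1IEC-/- mice, a rise of 1.58 ± 0.16 (adjusted p = 2.06e-09, and 2.40e-07 without the pair). The groups did not overlap for either gene. Cry2 rose less, by 0.64 ± 0.17 (adjusted p = 5.39e-03), with SV384 at 34.6 CPM inside the control range of 28.2 to 39.4 CPM. Per1 (0.86 ± 0.47, adjusted p = 0.181) and Per3 (-0.08 ± 0.26, adjusted p = 0.859) did not pass. For Per3 the pair was at 7.45 and 6.31 CPM, below the controls at 12.3 to 17.1, whereas SV479 and SV480 at 18.4 and 19.2 were above them.

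Of the clock genes, the REV-ERB genes had the lowest values relative to control. Nr1d1 (chromosome 11, 98767932 to 98775333) was at 41.3, 19.7, 37.4 and 29.3 CPM in controls and at 3.56, 3.01, 4.39 and 6.94 CPM in Bmal1IEC-/- mice. Its log2 fold change was -2.80 ± 0.32 (adjusted p = 9.62e-08), and -2.48 ± 0.40 without the pair (adjusted p = 2.22e-04). Nr1d2 (chromosome 14, 18204054 to 18239127) was at 86.2, 48.2, 64.9 and 52.7 CPM in controls and at 11, 10.5, 20.6 and 18.9 CPM in Bmal1IEC-/- mice, a fall of -2.02 ± 0.21 (adjusted p = 5.06e-09) and -1.67 ± 0.24 without the pair (adjusted p = 3.26e-05). Both genes were lower in every Bmal1IEC-/- mouse than in every control. Ciart, Bhlhe40 and Bhlhe41, other repressors of the loop, overlapped between the groups and did not pass.

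Of the D-box factors, Tef was at 30.6, 19.7, 20 and 36.5 CPM in controls and at 50.5, 41.8, 57.6 and 49.4 CPM in Bmal1IEC-/- mice. It rose by 0.91 ± 0.15 (adjusted p = 4.91e-05) and by 1.0 ± 0.17 without the pair (adjusted p = 6.12e-04). Its relatives Dbp (0.69 ± 0.42, adjusted p = 0.228) and Hlf (-0.69 ± 0.29, adjusted p = 0.0734) did not pass, at levels under 6 CPM. Their opponent Nfil3 was at 14.1 to 15.2 CPM in controls and 20.6 to 32.5 CPM in Bmal1IEC-/- mice, and Usp2, a clock-controlled ubiquitin protease, at 4.81 to 13.4 and 18.7 to 29.8 CPM. Both were called with all mice (Nfil3 0.80 ± 0.18, Usp2 1.43 ± 0.29) and missed the threshold without the pair (adjusted p = 0.0702 and 0.0574). Wee1, a gene of a mitotic kinase, was at 15.0 to 24.2 CPM in controls and 19.1 to 23.7 CPM in Bmal1IEC-/- mice.

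**Figure D3:**
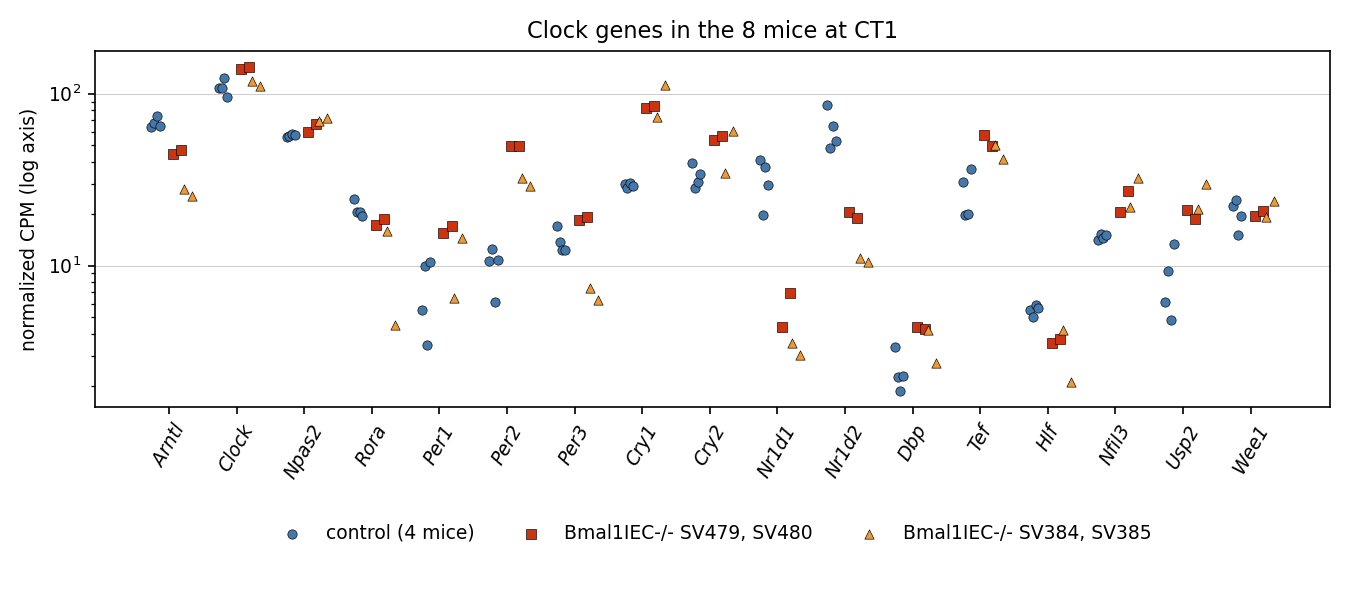
Normalized CPM on a log axis of 17 clock genes in the 8 mice at CT1, each point a mouse. Blue circles are the 4 control mice, red squares SV479 and SV480, and orange triangles SV384 and SV385. Per2, Cry1 and Tef lie above the controls and Nr1d1 and Nr1d2 below them in all 4 Bmal1IEC-/- mice, whereas for Arntl, Per3 and Rora the orange mice lie below the red ones.

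The letters of known clock motifs were searched on both strands in RefSeq promoters (GRCm38.p6, 250 bases before to 50 after a start), namely the E-box CACGTG, the D-boxes TTATGTAA and TTACGTAA, and AGGTCA, the core site that ROR and REV-ERB proteins share. Shown here are the promoter parts of genes called in both fits whose direction differs, with the motif in capitals and 40 bases on each side. Cry1 and Tef, which were higher, hold an E-box that begins 60 and 127 bases before the start. Nr1d2 and Lpin1, which were lower, hold AGGTCA 77 and 74 bases before the start, and Nags, which was higher, holds it on the opposite strand, beginning 178 bases before the start.
Cry1, chr10:85185069-85185154, minus strand: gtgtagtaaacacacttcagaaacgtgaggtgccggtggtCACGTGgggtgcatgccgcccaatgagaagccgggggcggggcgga
Tef, chr15:81802506-81802591, plus strand: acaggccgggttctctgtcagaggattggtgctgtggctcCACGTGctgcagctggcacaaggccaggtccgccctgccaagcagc
Nr1d2, chr14:18239138-18239223, minus strand: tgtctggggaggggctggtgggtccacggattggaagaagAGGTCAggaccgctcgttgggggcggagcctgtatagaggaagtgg
Lpin1, chr12:16610995-16611080, minus strand: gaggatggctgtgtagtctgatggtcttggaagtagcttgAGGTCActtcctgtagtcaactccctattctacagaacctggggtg
Nags, chr11:102145295-102145380, plus strand: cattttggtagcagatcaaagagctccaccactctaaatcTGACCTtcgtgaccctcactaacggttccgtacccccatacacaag

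Of all 32851 promoters, 7.15% held an E-box, 1.06% a D-box and 16.3% AGGTCA. Among genes called higher in both fits, 40 of 55 had a promoter in the table, and 11 of their 56 promoters (19.6%), of 8 genes, held an E-box. For genes called lower, 44 of 58 had a promoter, and 3 of 50 promoters (6.00%) held an E-box, while AGGTCA was in 10 (20%), against 9 (16.1%) among the higher genes. Several promoters of a gene share sequence, and these shares are a description.

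Since mice were also killed at CT5, CT9, CT13, CT17 and CT21, the difference at CT1 was set against the mean difference at those 5 times, from other mice. With all mice it was above that mean for 1494 genes (10.2%) and below it for 1075 (7.35%) at an adjusted p under 0.05. Without the pair, 45 genes (0.299%) were above and 14 (0.0929%) below. As for the calls at CT1, most of these genes passed only in the fit with SV384 and SV385.

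The control mean of Arntl was 67.5 ± 4.50 CPM (SD, n = 4) at CT1 and 6.86 ± 2.28 CPM at CT9, while in Bmal1IEC-/- mice it ran from 29.6 ± 8.0 to 36.3 ± 11.3 CPM over the 6 times. The genotype difference was negative at CT1 and CT21 (-0.86) but positive at CT9 and CT13 (log2 fold changes of 2.08 and 1.93), and the difference at CT1 was 1.57 log2 units below the mean of the other times (-1.57, adjusted p = 7.30e-07, and 3.33e-04 without the pair). Against CT5 and CT21 alone it was -0.45 and did not pass (adjusted p = 0.153). Npas2 had the same course in controls, from 57.0 ± 1.09 CPM at CT1 to 16.6 ± 6.78 CPM at CT9, and stayed between 66.5 ± 8.57 and 79.2 ± 4.86 CPM in Bmal1IEC-/- mice. Its difference was called at each of the other 5 times, by 0.87 to 2.13, and not at CT1, and the difference at CT1 was -1.37 from the mean of the others (adjusted p = 1.94e-07, and 4.18e-06 without the pair).

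Per2, Tef and Usp2 had their lowest control level at CT1 and were higher in Bmal1IEC-/- mice at that time. Per2 went from 10 ± 2.72 CPM at CT1 to 203 ± 40.7 CPM at CT13 in controls, but only from 38.3 ± 1.45 at its lowest to 107 ± 9.90 CPM in Bmal1IEC-/- mice. Its genotype difference was called higher at CT1 and CT5 and lower at CT13 (-0.92). For Tef, 26.7 ± 8.23 CPM in controls at CT1 and 275 ± 38.3 CPM at CT9 compared with 49.8 ± 6.48 and 118 ± 19.4 CPM in Bmal1IEC-/- mice. The difference at CT1 was above the mean of the other times by 1.94 for Per2, 1.54 for Tef and 1.94 for Usp2, and each passed also without the pair (adjusted p = 4.18e-06, 1.89e-07 and 0.0126).

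Cldn8, which encodes a claudin of tight junctions, was higher in Bmal1IEC-/- mice at every time, between 164 ± 17.6 and 198 ± 42.9 CPM. In controls it fell from 85.3 ± 9.96 CPM at CT1 to 14.5 ± 3.49 CPM at CT9. Its difference at CT1 (1.22 ± 0.16) was smaller than the mean of the other times by 1.20 (-1.20, adjusted p = 4.86e-05, and 2.78e-05 without the pair). At CT21 it was 1.32, however, and against CT5 and CT21 alone the contrast of -0.32 did not pass (adjusted p = 0.297). Lpin1 was called at CT1 alone among the 6 times. Controls were at 35.1 ± 7.30 CPM and Bmal1IEC-/- mice at 11.8 ± 1.66 CPM, and at the other times the log2 fold changes lay between -0.34 and -0.05 and none was called. Its difference from the other times was -1.39 (adjusted p = 4.86e-05, and 1.84e-03 without the pair). Nags, the enzyme that makes the activator of the urea cycle, was likewise called at CT1 alone, with a difference of 1.74 above the mean of the other times (adjusted p = 1.21e-04, and 0.0239 without the pair).

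For Nr1d2, Sis, Cyp4b1, Ces1d, Thbs4 and Ggh the difference at CT1 lay between -0.27 and 0.42 log2 units from the mean of the other times, and for none of them did it pass without the pair. For Ggh it passed with all mice (0.42, adjusted p = 0.0423). Single times could still differ from CT1, since Ces1d ran from -0.35 at CT5, where it was not called (adjusted p = 0.749), to -1.86 at CT17, and Cyp4b1 from -1.15 to -2.74. Of the 55 genes called higher in both fits, 37 (67.3%) were called higher at none of the other 5 times and 6 at all of them. Of the 58 called lower, 46 (79.3%) were called at no other time and 6 at all 5. Over all 14618 genes tested, 34 to 306 were called at each of those times, so most genes tested were called at none of them. Without the pair, the difference at CT1 differed from the mean of the other times for 22 of the 55 and 5 of the 58. Among genes called with all mice whose adjusted p was no longer under 0.05 without the pair, 562 of 587 higher (95.7%) and 934 of 952 lower (98.1%) were called at no other time.

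**Figure D4:**
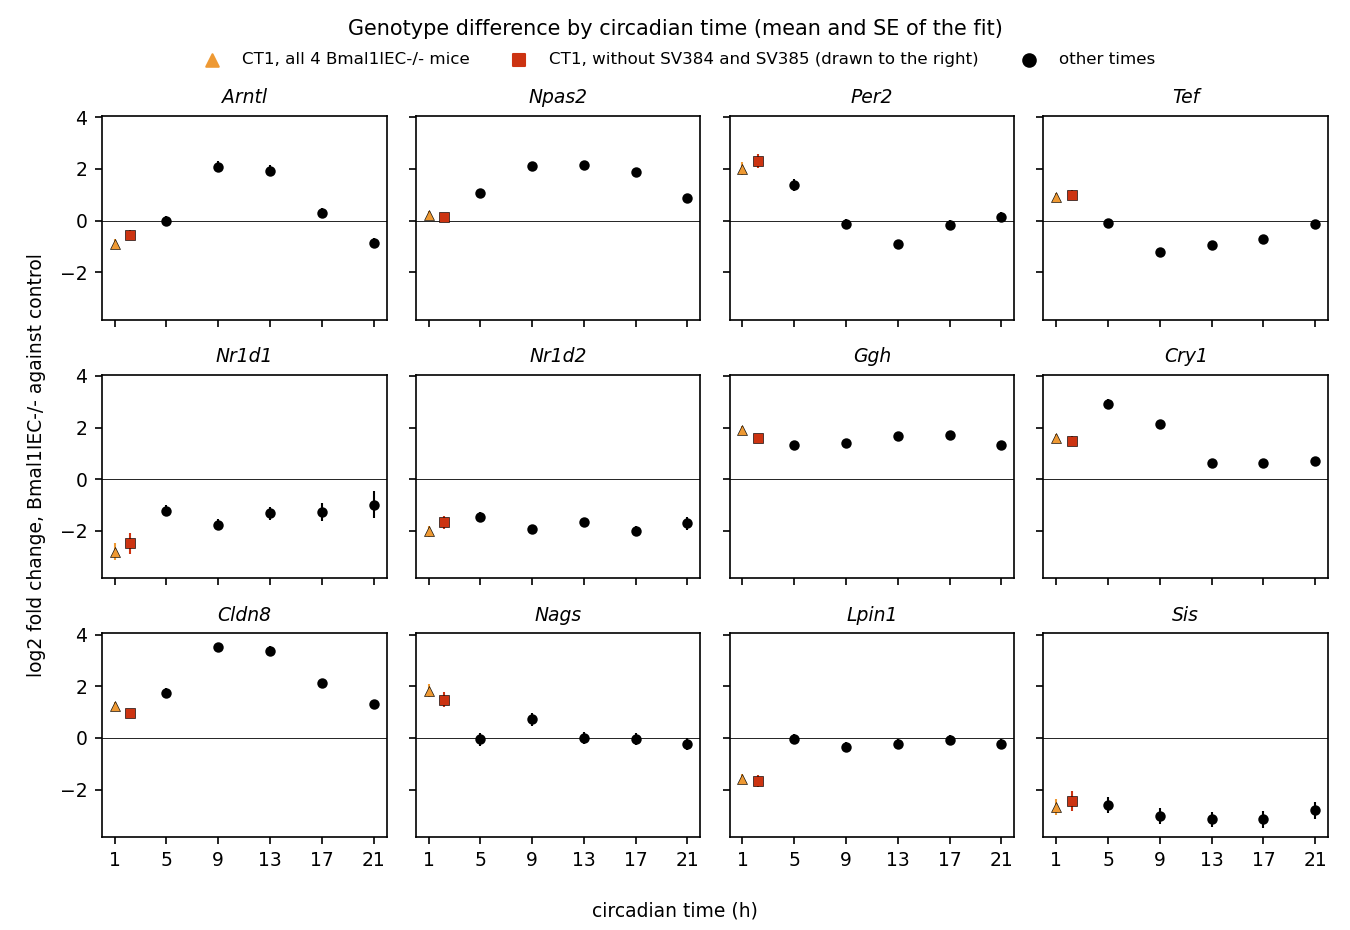
Log2 fold change with its standard error, Bmal1IEC-/- against control, of 12 genes at the 6 circadian times (x axis, in hours). Black circles are the other times, the orange triangle CT1 with all 8 mice, and the red square CT1 without SV384 and SV385, moved to the right to be seen. Arntl changes sign between CT1 and CT9, Nr1d2 and Sis are lower at all times, and Lpin1 and Nags are away from 0 at CT1.

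Of the genes called with all mice, 67 higher and 68 lower ones, clock genes included, kept an adjusted p under 0.05 in the same direction without the pair. Those named by rank are from the 12 in each direction with the smallest adjusted p. Ggh, the enzyme that trims the glutamate tail of folates, was at 49.2, 44.7, 58.2 and 50.4 CPM in controls and at 215, 243, 156 and 152 CPM in Bmal1IEC-/- mice. It rose by 1.92 ± 0.14 (adjusted p = 7.15e-14, and 8.90e-11 without the pair) and was called at all 6 times. In the folate list of 18 tested genes, Ggh and Tyms were called higher and Mtr lower with all mice, where 4.47% and 6.98% of all genes were. Without the pair Ggh alone was called. The list median was 0.24, and 0.25 without the pair, where the median over all genes tested was -0.03 and -0.01.

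Among enzymes of digestion and of foreign compounds, Sis, Ces1d, Cyp4b1 and Ces1g fell in both fits. Sis, the sucrase and isomaltase of the brush border, was at 63.9, 64.2, 114 and 58.7 CPM in controls and at 10.4, 9.02, 14.5 and 13.1 CPM in Bmal1IEC-/- mice, a log2 fold change of -2.67 ± 0.31 (adjusted p = 1.13e-07, and 2.05e-04 without the pair). Ces1d, a carboxylesterase, was at 286, 261, 238 and 331 CPM in controls and at 137, 102, 105 and 98.5 CPM in Bmal1IEC-/- mice (-1.34 ± 0.14, adjusted p = 1.73e-08, and 8.78e-07 without the pair). Cyp4b1, a cytochrome P450, was at 96.9, 100, 102 and 161 CPM in controls and at 33.7, 25.6, 32.9 and 32.3 CPM in Bmal1IEC-/- mice (-1.88 ± 0.23, adjusted p = 2.84e-07, and 2.22e-04 without the pair). None of the 3 genes overlapped between the groups. Ces1g fell as well, from 296 to 392 CPM in controls to 182 to 227 CPM (-0.83, adjusted p = 7.59e-05, and 2.32e-03 without the pair).

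Over the list of 55 tested genes of xenobiotic metabolism, 7 were called higher and 5 lower with all mice, where 4.47% and 6.98% of all genes were, and 1 higher and 3 lower without the pair, the lower ones being Ces1d, Cyp4b1 and Ces1g. The list median was 0.13 and -0.01. Of 14 brush border hydrolases, Sis and Enpep, an aminopeptidase, were called lower and Alpi, intestinal alkaline phosphatase, higher, and Sis alone without the pair. Of 14 transporters of drugs and xenobiotics, Slc22a4, a carrier of ergothioneine, fell by -2.21 ± 0.39 (adjusted p = 1.53e-04) from 3.36 to 6.75 CPM in controls to 0.324 to 1.80 CPM and was also called without the pair (adjusted p = 0.0156). SV384, SV385, SV479 and SV480 held 1, 6, 5 and 3 counts of Slc22a4, near the floor of 3. Abcc2, an export pump for conjugates, was called with all mice alone.

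Lpin1, which encodes a phosphatidate phosphatase of triglyceride synthesis, was at 37.3, 41.2, 37.4 and 24.5 CPM in controls and at 14.2, 10.8, 10.7 and 11.5 CPM in Bmal1IEC-/- mice. The fall of -1.58 ± 0.19 (adjusted p = 2.84e-07, and 4.67e-05 without the pair) left the groups well apart. In the list of sterol and fatty acid synthesis, 2 of 37 genes, Insig1 and Fdps, were called lower with all mice, close to the 6.98% of all genes, and none without the pair, and the medians were -0.12 and -0.14. For fatty acid oxidation, 4 of 30 genes were called higher with all mice (4.47% of all genes), Acads and Plin2 among them, and none without the pair. The median of this list went from 0.40 to 0.12.

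Among transport and barrier genes, Cldn8, Sgk1 and Slc51a rose in both fits. Cldn8 was at 77.9, 75.5, 94.2 and 93.5 CPM in controls and at 206, 256, 167 and 164 CPM in Bmal1IEC-/- mice (1.22 ± 0.16, adjusted p = 2.56e-06, and 2.56e-03 without the pair). In the tight junction list 5 of 18 genes were called higher with all mice (4.47% of all genes), Cldn3 and Cldn7 among them. Jam2 was called lower (6.98% of all genes), and Cldn8 alone was called without the pair. Sgk1, a kinase that keeps the epithelial sodium channel at the cell surface, was at 76.4, 105, 68.6 and 107 CPM in controls and at 229, 270, 215 and 239 CPM in Bmal1IEC-/- mice. It rose by 1.41 ± 0.27 (adjusted p = 3.09e-04, and 0.0262 without the pair). Slc51a, part of the bile acid exporter of the basolateral membrane, rose by 0.89 ± 0.14 (adjusted p = 4.01e-05, and 0.0225 without the pair) from 101 to 127 CPM to 162 to 232 CPM.

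Nags was at 6.42, 3.0, 6.41 and 9.40 CPM in controls and at 20.4, 34.0, 18.4 and 16.5 CPM in Bmal1IEC-/- mice. Its rise of 1.83 ± 0.26 had an adjusted p of 9.47e-06, and 4.95e-03 without the pair. Other genes that rose in both fits were Fgfbp1 (0.85 ± 0.12), which encodes a carrier of fibroblast growth factors, Alad (1.12 ± 0.17), an enzyme of heme synthesis, and Ffar4 (1.31 ± 0.22), a receptor of long-chain fatty acids. For each of them all 4 Bmal1IEC-/- mice lay above all controls. Pycard, the adaptor of inflammasomes, rose by 0.60 ± 0.093 with all mice (adjusted p = 3.59e-05) and was at 0.50 without the pair (adjusted p = 0.0158), below the fold threshold.

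Of the genes that fell outside these groups, Igf1r, the receptor of insulin-like growth factor, was at 56.5, 48.2, 48.3 and 49.3 CPM in controls and at 23.0, 22.5, 30.5 and 36.8 CPM in Bmal1IEC-/- mice (-0.83 ± 0.12, adjusted p = 8.03e-06, and 0.0110 without the pair). Thbs4, a matrix thrombospondin, was at 14.1, 12.2, 14.4 and 16.8 CPM in controls and at 5.50, 4.51, 3.29 and 2.40 CPM in Bmal1IEC-/- mice (-1.88 ± 0.26, adjusted p = 3.78e-06, and 3.43e-05 without the pair). It is the only one of the 12 lower genes named by rank that belongs to the fibroblast and matrix list, and it was also called lower at the other 5 times. Ebf1, a transcription factor of B cells and stroma, was at 6.67 to 9.17 CPM in controls and 1.20 to 3.47 CPM in Bmal1IEC-/- mice (-1.61 ± 0.26, adjusted p = 4.70e-05, and 0.0164 without the pair).

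Genes that mark the cell types of the colon were examined as lists, to set the epithelium beside the tissue around it. The counts of called genes in these lists stand against 4.47% of all genes called higher and 6.98% called lower with all mice, and 0.391% and 0.464% without the pair. Over 24 absorptive and general epithelial genes the sum was 25700 to 29900 CPM in controls and 35400, 43900, 31500 and 31700 CPM in Bmal1IEC-/- mice, without overlap. With all mice 5 were called higher and 2 lower, and without the pair 2 were called higher, Krt19, an epithelial keratin, and Cdx2, the factor of intestinal identity. Cdx2 was at 150, 159, 180 and 193 CPM in controls and at 265, 370, 275 and 252 CPM in Bmal1IEC-/- mice (0.77 ± 0.13, adjusted p = 8.96e-05, and 0.0259 without the pair). The median of the list went from 0.33 to 0.11 without the pair.

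Goblet cell genes were called in both directions. Muc2, the gel-forming mucin, was at 17000, 18200, 19000 and 16200 CPM in controls and at 7200, 7090, 11200 and 11600 CPM in Bmal1IEC-/- mice. It fell by -0.92 ± 0.19 with all mice (adjusted p = 7.06e-04), whereas without the pair the difference of -0.63 did not pass (adjusted p = 0.141). Zg16, a lectin that binds bacteria in mucus, was at 876, 830, 697 and 965 CPM in controls and at 1630, 2360, 1410 and 1850 CPM in Bmal1IEC-/- mice, a rise of 1.11 ± 0.19 (adjusted p = 9.76e-05, and 0.0205 without the pair). Foxa3, a transcription factor of goblet cells, rose by 0.81 ± 0.17 (adjusted p = 7.45e-04, and 0.0164 without the pair). Of the 22 goblet genes, 4 were called higher and 2 lower with all mice, where 4.47% and 6.98% of all genes were, and Zg16 and Foxa3 were called without the pair.

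Of the other epithelial lineages, 5 of 15 enteroendocrine genes were called higher with all mice and Chgb, a protein of hormone granules, was called in both fits. It was at 603, 549, 519 and 531 CPM in controls and at 990, 1140, 822 and 880 CPM in Bmal1IEC-/- mice (0.80 ± 0.12, adjusted p = 2.70e-05, and 0.0164 without the pair). The hormone genes Pyy and Sct and the granule gene Chga were called with all mice alone. For tuft cells 2 of 11 genes were called higher, and without the pair none of the 12 then tested was. None of 18 stem cell and Wnt target genes was called in either fit, at medians of -0.02 and -0.10. For replication and mitosis, 3 of 32 genes were called higher (4.47% of all genes) and 2 lower (6.98% of all genes) with all mice and none without the pair, at medians of -0.12 and -0.01.

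For antimicrobial genes 1 mouse, SV385, stood out. Retnlb, a bactericidal protein of goblet cells, was at 2.44, 2.0, 2.14 and 0.855 CPM in controls and at 30.4, 270, 19.2 and 12.5 CPM in Bmal1IEC-/- mice. Every Bmal1IEC-/- mouse was above every control, with SV385 far above the rest. The log2 fold change was 5.45 ± 1.11 (adjusted p = 5.65e-04) with all mice and 3.06 ± 1.23 without the pair (adjusted p = 0.196). Ang4, an antimicrobial angiogenin, was also highest in SV385, with controls at 5.20 to 13.7 CPM and Bmal1IEC-/- mice at 17.5, 339, 83.9 and 31.2 CPM (3.67 ± 0.90, adjusted p = 3.0e-03, and 0.145 without the pair). For Itln1 and Duoxa2 the group difference rested on SV385, at 17.4 and 19.2 CPM, where the other 3 mice were at 0.647 to 1.60 and 3.47 to 5.21 CPM. Altogether 4 of 22 antimicrobial genes were called higher with all mice (4.47% of all genes), and none without the pair.

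Fibroblast genes were called in 1 direction. Over 27 fibroblast and matrix genes the sum was 3620 to 4070 CPM in controls and 3870, 1100, 2470 and 2650 CPM in Bmal1IEC-/- mice, so that SV384 lay within the controls and the other 3 below them. With all mice 13 of the 27 were called lower and none higher, and 4 without the pair, at medians of -0.60 and -0.53. Dcn, the proteoglycan decorin, was at 371, 384, 375 and 396 CPM in controls and at 355, 76.4, 206 and 201 CPM in Bmal1IEC-/- mice (-0.87 ± 0.19, adjusted p = 1.40e-03, and 2.54e-04 without the pair). Fn1, fibronectin, fell by -0.98 ± 0.22 (adjusted p = 1.43e-03, and 0.0301 without the pair). These cells do not carry the deletion, and whether the share of stroma in the dissected tissue or its level of RNA differed was not tested.

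Smooth muscle genes summed to 9210 to 11200 CPM in controls and to 7190, 2200, 7900 and 7950 CPM in Bmal1IEC-/- mice. Of 20 genes 9 were called lower with all mice, Myh11 and Flna among them, and none without the pair, where the median went from -0.57 to -0.29. Myh11, the myosin of smooth muscle, was at 1780, 1820, 2100 and 1830 CPM in controls and at 1060, 268, 1270 and 1350 CPM in Bmal1IEC-/- mice (-0.93 ± 0.21, adjusted p = 1.64e-03, and 0.0574 without the pair). Endothelial genes were called lower in 5 of 12 cases, Pecam1 and Flt1 included, and in none without the pair (medians of -0.56 and -0.39). Fat cell genes had a low median of -1.61, and -1.56 without the pair, yet their sum overlapped, at 368 to 817 CPM in controls and 331 to 403 in Bmal1IEC-/- mice, and 1 of 11, Plin4, was called, with all mice alone.

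Immune genes were called in both directions. B and plasma cell genes summed to 5100 to 6830 CPM in controls and 7270 to 9210 CPM in Bmal1IEC-/- mice, without overlap, and 2 of 13, Igha and Sdc1, were called higher with all mice and none without the pair. Sdc1 and the listed genes Pigr and Xbp1 are also made by epithelial cells, so the sum does not stand for B and plasma cells alone. Complement genes were lower, with sums of 571 to 619 CPM in controls and 542, 171, 376 and 351 CPM in Bmal1IEC-/- mice. Of 19 of them 7 were called lower with all mice (6.98% of all genes), and without the pair 2 were (0.464% of all genes), C3 among them. The median of the list was -0.57 in both fits. C3, the central complement protein, was at 117, 108, 148 and 114 CPM in controls and at 68.6, 11.7, 48.8 and 33.6 CPM in Bmal1IEC-/- mice (-1.59 ± 0.35, adjusted p = 1.08e-03, and 0.0345 without the pair). As for the fibroblast sum, SV384 had the highest and SV385 the lowest complement level of the 4 Bmal1IEC-/- mice.

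Interferon-induced genes had a median of -0.40, and -0.33 without the pair. With all mice 6 of 50 were called lower and 1 higher, where 6.98% and 4.47% of all genes were. Without the pair Gbp7, a guanylate-binding protein, was the one called (-1.13, adjusted p = 0.0478). Of T cell genes, Gzma and Cd8a were called lower among 12 with all mice, at or below 7.64 CPM, and none without the pair. None of 9 MHC class II genes was called in either fit, although SV384 summed to 646 CPM and SV385 to 212 CPM, on either side of the other 6 mice at 383 to 431 CPM. Of 34 cytokine and chemokine genes, Tgfb3 was the one called in both fits (-1.03 ± 0.21, adjusted p = 5.84e-04, and 0.0425 without the pair).

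Lists of stress and energy genes had positive medians. Their counts stand against 4.47% of all genes called higher and 6.98% called lower with all mice. Without the pair these shares were 0.391% and 0.464%. In the list of heat shock and cold-inducible genes 6 of 23 were called higher with all mice and Cirbp, an RNA-binding protein induced by cold, lower. Hspa8, a chaperone, was at 999, 892, 886 and 917 CPM in controls and at 1590, 1400, 1560 and 1420 CPM in Bmal1IEC-/- mice, alike in the pair and the other 2 mice. Its log2 fold change was 0.69 ± 0.18 (adjusted p = 4.51e-03) and 0.68 without the pair (adjusted p = 0.0935). At CT13 Hspa8 was called lower in Bmal1IEC-/- mice (-0.65, adjusted p = 0.0273). None of the 23 was called without the pair, although the median was 0.40 with and 0.42 without it. For genes of the endoplasmic reticulum stress response, 7 of 28 were called higher with all mice and none without the pair, at medians of 0.31 and 0.27. Of 32 glycolysis genes, 5 were called higher and none without the pair, where the median went from 0.30 to 0.09, and Ldha, lactate dehydrogenase, kept an adjusted p of 0.0293 at a log2 fold change of 0.33.

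**Figure D5:**
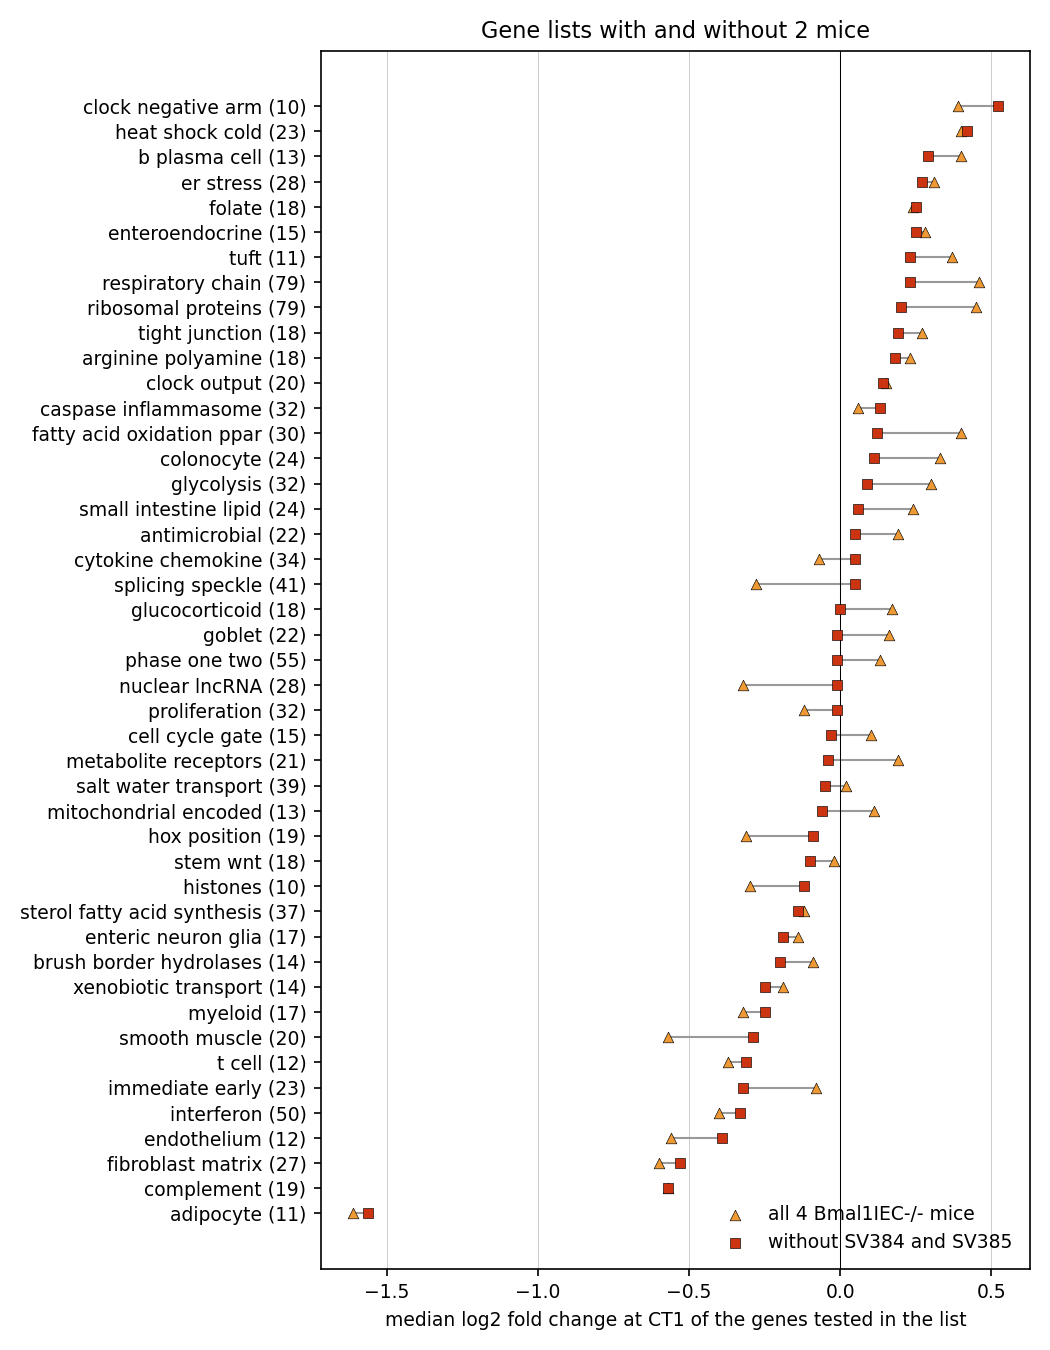
Median log2 fold change at CT1, Bmal1IEC-/- against control, of the tested genes of each of 45 gene lists (number of genes tested with all mice in brackets). Orange triangles are medians with all 4 Bmal1IEC-/- mice and red squares without SV384 and SV385. The fibroblast, complement and heat shock lists hold their place without the pair, while splicing, nuclear lncRNA, ribosomal protein and respiratory chain lists move towards 0.

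The genes that were called only with SV384 and SV385 included genes of ribosomal proteins and of the respiratory chain. Of 79 ribosomal protein genes, 18 were called higher with all mice, where 4.47% of all genes were. An adjusted p under 0.05 was reached by 68 of them, and by 3616 of all 14618 genes in either direction. Without the pair none of the ribosomal genes reached it, where 183 of 15073 genes did, and the median went from 0.45 to 0.20. Rps14, a protein of the small ribosomal subunit, was at 440, 418, 435 and 435 CPM in controls and at 927, 1070, 532 and 540 CPM in Bmal1IEC-/- mice (0.83 ± 0.13, adjusted p = 5.04e-05, and 0.154 without the pair). SV479 and SV480 were thus above the controls too, at a smaller distance. The same held for the sum of the list, at 31300 and 31600 CPM in these mice against 27100 to 28200 in controls. Of 79 respiratory chain genes 23 were called higher (4.47% of all genes), and none without the pair (0.391% of all genes). Their median went from 0.46 to 0.23. Cox4i1, a subunit of cytochrome oxidase, was at 447 to 496 CPM in controls and at 812, 951, 632 and 603 CPM in Bmal1IEC-/- mice.

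Nuclear non-coding RNA, on which the pair was singled out, stood lowest in the pair. Neat1, the scaffold of paraspeckles, was at 1900, 1690, 1870 and 1890 CPM in controls and at 321, 344, 1390 and 1370 CPM in Bmal1IEC-/- mice (-1.10 ± 0.24, adjusted p = 1.08e-03, and 0.118 without the pair). Of 28 nuclear long non-coding RNAs 6 were called lower with all mice (6.98% of all genes) and none without the pair (0.464% of all genes). The median went from -0.32 to -0.01. For splicing and speckle genes 3 of 41 were called lower, close to the 6.98% of all genes, and none without the pair. Their median went from -0.28 to 0.05. Srrm2, a large speckle protein, was at 1220 to 1430 CPM in controls, at 460 and 388 CPM in the pair and at 1250 and 1350 CPM in SV479 and SV480. Hoxb4 was at 20.8 to 22.5 CPM in controls and at 5.18, 5.41, 21.9 and 22.7 CPM in Bmal1IEC-/- mice, and Hoxb5 had the same order. These Hox genes mark position along the body. Of 19 Hox and position genes 4 were called lower with all mice (6.98% of all genes) and none without the pair.

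Length and type were also compared, as a description. The 587 higher genes whose adjusted p was lost without the pair had a median exon length of 2392 bases and the 952 lower ones 5690 bases, against 4285 bases over all tested genes. Long non-coding RNAs made up 14.5% of those 952 lower genes (138 genes) and 5.58% of all tested genes. The pair was singled out by its low non-coding RNA, so this larger share follows in part from that choice. The 55 genes called higher in both fits had a median exon length of 3198 bases and held no long non-coding RNA, and the 58 called lower had 5612 bases and 2 of them. SV384 and SV385 together were below SV479 and SV480 by more than 2-fold for 933 tested genes (6.38%) and above them for 173 (1.18%).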

How the data were processed

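Per the labels and the study's methods, the authors made libraries from colon RNA of 48 mice with the TruSeq Stranded mRNA kit and sequenced them as paired reads, which were trimmed with Trimmomatic 0.39, aligned to mm10 with STAR 2.7.5c and counted on exons with featureCounts 1.4.6 at a mapping quality of at least 4. FastQC 0.11.5 and SAMtools 1.3.1 were also used, and the study tested expression with DESeq2 1.22.0. Whether strand was used in counting is not given in the sources used here, so overlapping genes on opposite strands may share reads. The deposited values are whole-number read counts per gene without normalization. Totals ran from 3144997 to 4785844 counts per mouse, a count of 0 allows up to 3, and this floor covers counting error only. No label gives a batch, and nothing says more of the replicates than that they are separate mice. The p-values measure a spread between mice that is estimated over all 12 groups of the fit, not at CT1 alone. In a fit of the 8 mice at CT1 alone, 197 genes were called higher and 102 lower.

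Counts were modelled here with edgeR 4.0.16 in R 4.3.3 (TMM normalization, filterByExpr, quasi-likelihood F test, Benjamini-Hochberg adjustment over all genes tested), with 1 mean for each of 12 groups of genotype and time. A gene was called at an adjusted p under 0.05 and a fold change over 1.5, and in the contrast with other times at the adjusted p alone. Fits were made over 48 mice and over 46, and alternatives used DESeq2 1.42.0, other normalizations, filters and subsets of mice, as well as leaving out each mouse at CT1. CPM values are counts scaled to the TMM-adjusted library size. Gene symbols and positions came from GENCODE vM21 (55141 of 55401 identifiers matched), and figures from Python 3.11.15 and matplotlib 3.10.9. The steps were tested on simulated data.

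The named genes were 21 clock genes, the 12 in each direction with the smallest adjusted p that held without the pair, the 6 in each direction that did not hold, up to 6 in each direction of the contrast with other times that held without the pair, and up to 4 called members of each of 52 gene lists. Some genes that this rule selects are not reported here. Genes outside this rule are named where they complete a count. The comparison, the genes and the lists were chosen with earlier results of these data known.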

Additional observations from a re-analysis of the deposited data

Results flagged for a closer look

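For 17 named genes the genotype difference at CT1 differed from the mean difference at the other 5 circadian times, by the edgeR contrast at an adjusted p under 0.05 both with and without SV384 and SV385. All but Per3, Usp2, Nags, Foxa3 and Dcn were named by a rule that required this, so the count rests largely on that choice. Over all genes tested, 10.2% were above and 7.35% below with all mice, and 0.299% and 0.0929% without the pair. The difference at CT1 minus the mean of the others was negative, on the log2 scale, for Arntl (-1.57), Npas2 (-1.37), Cldn8 (-1.20), Lpin1 (-1.39), Igf1r (-0.86), Ebf1 (-1.69) and Dcn (-0.73). It was positive for Per2 (1.94), Per3 (0.88), Tef (1.54), Usp2 (1.94), Nags (1.74) and Foxa3 (0.83), and also for Smim24 (0.97), Clrn3 (0.74), Slc9a3r1 (1.05) and Adap1 (1.24). Smim24 was lower in Bmal1IEC-/- mice at each of the other 5 times, by -1.34 to -0.75, and did not pass at CT1 (-0.15, adjusted p = 0.356). In Per3 the difference at CT1 itself did not pass in either fit. Against CT5 and CT21 alone, the contrast did not pass for Arntl (-0.45, adjusted p = 0.153), Cldn8 (-0.32, adjusted p = 0.297) and Per3 (0.41, adjusted p = 0.411).

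Among 348 groups of 4 mice (174 named genes in each genotype at CT1), 27 held a mouse that lay apart from the other 3 by Dixon's test, where 17.4 would be expected by chance at 1 in 20. In the Bmal1IEC-/- group, 9 of these were SV385 and 2 were SV384. SV385 was above the other 3 mice for Retnlb (270 CPM), Itln1 (17.4), Duoxa2 (19.2), Alpi (29.5), Angptl4 (29.2), Kcnn4 (37.9) and Junb (32.8), and below them for Dbp (2.71) and Cyp4b1 (25.6). SV384 was above for Ces1d (137 CPM) and below for Fdps (2.27). SV480 was above for Abcc2 (4.0 CPM) and Rorb (0.534), and below for Srm (18.7). Rorb was at 2 counts in SV480 and at 0 in the other Bmal1IEC-/- mice, within the floor of 3. Dbp was at 9 counts in SV385 and at 13 to 16 in the other Bmal1IEC-/- mice.

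In controls SV469 was above the others for Cyp4b1 (161 CPM), Slc51a (127), Slc27a4 (154), Tpi1 (446) and Sdc1 (194). SV468 was above for Sis (114 CPM) and Myh11 (2100) and below for Ebf1 (6.67). SV454 was above for Glipr2 (39.4 CPM) and Igf1r (56.5) and below for Cdx1 (118), and SV455 was above for Hoxb5 (41.0 CPM) and below for Neat1 (1690).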

How the results depend on the processing

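With all mice, the counts of genes called higher and lower at CT1 (654 and 1020) stayed within 1.5 times under DESeq2, its size factors in edgeR, no filter on low counts, normalization by protein-coding genes and a test of protein-coding genes alone. They moved to 59 and 70 without SV384 and SV385, to 197 and 102 in a fit of the 8 mice at CT1 alone, to 113 and 151 in a fit of the 6 mice without the pair, and to 10 and 14 when the test was made against the fold of 1.5 itself. Leaving out single mice gave 267 to 988 higher and 306 to 1345 lower calls. Without the pair, the counts of 59 and 70 moved to 95 higher with DESeq2, to 217 and 177 with no filter and to 113 and 151 with 6 mice alone. Leaving out 1 more mouse gave 6 to 126 higher and 6 to 79 lower calls, so that these counts rest on each of the 2 remaining Bmal1IEC-/- mice (11 and 7 without SV479, 6 and 6 without SV480) and on the controls (34 and 38 without SV454, 37 and 40 without SV455, 27 and 35 without SV468, 126 higher without SV469). The 1494 and 1075 genes whose difference at CT1 was above or below that of the other times moved to 45 and 14 without the pair and to 838 and 513 against CT5 and CT21 alone, and to 506 to 1925 and 275 to 1474 when single mice were left out. The lower count passed 1.5 times without SV384 (648), SV385 (275), SV454 (642), SV455 (708) and SV468 (652), the higher count without SV385 (506). The cause of these moves, the smaller number of mice included, was not tested, and no other pair of mice was left out for comparison.

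Without the pair, the log2 difference at CT1 changed sign for Per3 (0.44), Ciart (0.18), Wee1 (-0.01), Ier2 (-0.14), Hoxb5 (0.02) and Hoxb4 (0.04), with the same values for Per3, Wee1, Ier2, Hoxb5 and Hoxb4 in the 6 mice alone, and with no filter then for Wee1 (0.02) and Srrm2 (0.02). Against the other times it changed sign without the pair for Nr1d2 (0.08), Thbs4 (-0.30), Retnlb (-1.43), Itln1 (-0.34), Ier2 (-0.21), Il18 (-0.05), Clps (-0.05) and Hoxb5 (0.00), and against CT5 and CT21 alone for Cry1 (-0.24), Cyp4b1 (-0.37), Abcc2 (-0.21) and Arg2 (0.05). Leaving out single mice gave, with all mice, -0.33 to 0.15 for Per3, -0.53 to 0.03 for Ciart, -0.02 to 0.78 for Bhlhe41 and -0.07 to 0.15 for Wee1. Without the pair it gave -0.02 to 0.45 for Ciart, -0.13 to 0.11 for Wee1, -0.06 to 0.05 for Srrm2 and -0.03 to 0.09 for Hoxb5. Against the other times it gave -0.04 to 0.34 for Thbs4, -1.05 to 1.34 for Retnlb, -0.02 to 1.75 for Ang4, -0.59 to 1.83 for Itln1 and -0.25 to 0.33 for Abcc2. Apart from left-out mice, 1123 of 1539 values of named genes kept their direction and their side of the threshold with all mice, and 403 were in the same direction but no longer past it. No paired analysis was possible because the labels give the mice no numbers that groups share. At this depth a gene at 0 counts in a mouse may hold up to 3, and differences under that floor were not detectable.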

Other observations

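Some gene groups not described so far were called at CT1 with all mice and mostly lost without SV384 and SV385. The counts in this section stand against 4.47% of all genes called higher and 6.98% called lower with all mice. Of 6 tested gasdermins, pore-forming proteins of cell death, Gsdmc4 was called higher, at 375, 324, 224 and 357 CPM in controls and 640, 1040, 751 and 710 CPM in Bmal1IEC-/- mice (1.30 ± 0.32, edgeR adjusted p = 3.08e-03), and without the pair the difference of 1.18 had an adjusted p of 0.0910. Tff2, a trefoil peptide, was at 0.25 to 3.74 CPM in controls and at or below 0.324 CPM in Bmal1IEC-/- mice, and was called lower with all mice alone (adjusted p = 5.25e-03, and 0.117 without the pair). Of 18 tested genes that respond to glucocorticoids, Sgk1, Tsc22d3 and Fkbp5 were called higher, and Sgk1 in both fits. Tsc22d3 was at 13.9 to 30.8 CPM in controls and 32.7 to 49.6 CPM in Bmal1IEC-/- mice, without overlap (0.86 ± 0.22, adjusted p = 3.76e-03, and 0.0572 without the pair). Immediate early genes went both ways with all mice, Egr1 lower and Junb and Ier2 higher among 23, and Junb reached 32.8 CPM in SV385 against 6.14 to 9.33 CPM in the other Bmal1IEC-/- mice. In the list of arginine and polyamine genes, Arg2 and Srm were called higher and Slc7a2 lower of 18, and none without the pair.

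For genes of lipid uptake typical of the small intestine, 7 of 24 were called higher and Cd36 lower with all mice, and Slc51a alone in both fits. Kit, a marker of mast cells and of pacemaker cells in the gut wall, was at 213 to 284 CPM in controls and 127 to 181 CPM in Bmal1IEC-/- mice (-0.64 ± 0.13, adjusted p = 7.52e-04, and 0.124 without the pair). Of 17 myeloid genes, Cd163 was called lower, with all mice alone. In the apoptosis and inflammasome list of 32 genes, Bak1, Bax, Il18 and Pycard were called higher and Bcl2 and Bcl2l11 lower, and without the pair none passed both thresholds. The numbers of calls at the other times, in the same fit, were 44 at CT5, 133 at CT9, 306 at CT13, 89 at CT17 and 34 at CT21, against 1674 at CT1 with all mice and 129 without the pair.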
